A study of Mus musculus with 30 samples.

Results

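Foxo1, Foxo3 and Foxo4 are 3 of the 21278 named genes on the array, and their probes are 5 of its 41174. The genes were taken by symbol or synonym, with every probe, and with every chromatin immunoprecipitation sequencing (ChIP-seq) peak within 100 kb of the probes. Foxo1 had 63 such peaks on 21 of 24 peak lists, Foxo3 had 64 on 20 lists and Foxo4 had 52 on 15 lists.

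All animals were C57BL/6. RNA came from 3 groups with 2 samples each, and each group had 1 sample in each dye of 2-colour Agilent arrays. E2A-/- and EBF-/- pre-pro-B cells lack E2A and EBF1, transcription factors needed for early B cell development, and both were grown over S17 stromal cells in IL-7, SCF and FLT3 ligand. RAG1-/- pro-B cells lack Rag1, which makes the recombinase that cuts antigen receptor genes. They were B220+ cells of femoral bone marrow, purified on magnetic beads and then expanded for 10 d in IL-7 and SCF, so genotype and culture cannot be told apart where RAG1-/- cells are compared with the others. ChIP-seq used RAG1-/- cells (E2A, EBF1, FOXO1, CTCF and 5 histone marks), EBF-/- cells (E2A and the same 5 marks), E2A-/- cells and A12 cells (E2A and H3K4me1), and 1 mock immunoprecipitation. A12 is an E2A-/- T cell line. In E2A-/- and A12 cells a retrovirus that also carried human CD25 supplied E47-ER, full-length E2A joined to the ligand-binding domain of the estrogen receptor, or bHLH-ER, which has no transactivation domain. These cells were cultured for 21 h and then received 1 µM tamoxifen for 1 or 6 h, and CD25-bearing cells were enriched.

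FOXO proteins are forkhead transcription factors that act downstream of growth factor receptors. When PI3 kinase is active, AKT and SGK phosphorylate them, 14-3-3 proteins bind them, and they leave the nucleus, so their activity is set largely after transcription. In the B lineage FOXO1 is known for driving the IL-7 receptor, the Rag genes and Blnk; FOXO3 and FOXO4 bind the same DNA core and share many targets, among them cell cycle inhibitors and genes of cell death.

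The stretch of 250 bases before the start of Foxo1 and of Foxo3 is shown from RefSeq (GRCm38.p6), because FOXO1, E2A and EBF1 were all immunoprecipitated and each has a known DNA core. Both are printed 5′ to 3′ on the gene's strand, at chr3:52268087-52268336 (+) for Foxo1 and chr10:42276696-42276945 (-) for Foxo3, with capitals on the only match to the EBF core CCCNNGGG.
Foxo1: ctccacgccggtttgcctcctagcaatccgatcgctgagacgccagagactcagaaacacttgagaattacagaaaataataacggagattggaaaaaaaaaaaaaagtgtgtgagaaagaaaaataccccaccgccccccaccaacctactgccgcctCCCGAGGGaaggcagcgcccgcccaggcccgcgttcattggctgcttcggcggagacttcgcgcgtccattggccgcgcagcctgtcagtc
Foxo3: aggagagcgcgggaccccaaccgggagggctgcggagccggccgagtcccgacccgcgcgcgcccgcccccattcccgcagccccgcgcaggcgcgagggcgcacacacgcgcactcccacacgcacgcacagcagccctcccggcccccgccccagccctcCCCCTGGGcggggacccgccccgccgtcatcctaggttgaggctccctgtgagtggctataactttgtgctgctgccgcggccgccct
On both strands, neither stretch held the FOXO core GTAAACA or the E-box CAGCTG, which can be bound by E2A. CCCNNGGG was found in 11.8% of 32851 RefSeq promoters of this length, GTAAACA in 3.17% and CAGCTG in 13%. The core CCCNNGGG reads the same on both strands, and no other searched core overlapped it. Foxo1 had 20 CpG dinucleotides here and Foxo3 had 31, against a median of 6.0 over all promoters, and 17.9% and 5.19% of promoters had at least as many. GC content was 56.0% for Foxo1 and 76.4% for Foxo3, against a median of 52.4%. These matches are letters in a short window and say nothing of binding.

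Foxo1 was the member with RNA above background in every group, and it was far brighter in RAG1-/- pro-B cells than in either pre-pro-B group. Its probe A_51_P138044 (mm8 chr3:52434190-52434249, + strand) gave normalized log2 signals of 8.61 and 7.02 in E2A-/- cells, 8.41 and 8.39 in EBF-/- cells, and 13.95 and 13.98 in RAG1-/- cells. The RAG1-/- samples lay above all 4 others with no overlap, and the pre-pro-B groups overlapped. The scanner's processed intensities before normalization ran from 87.4 to 551 in the pre-pro-B samples and were 21930 and 17470 in the RAG1-/- samples.

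**Figure D1:**
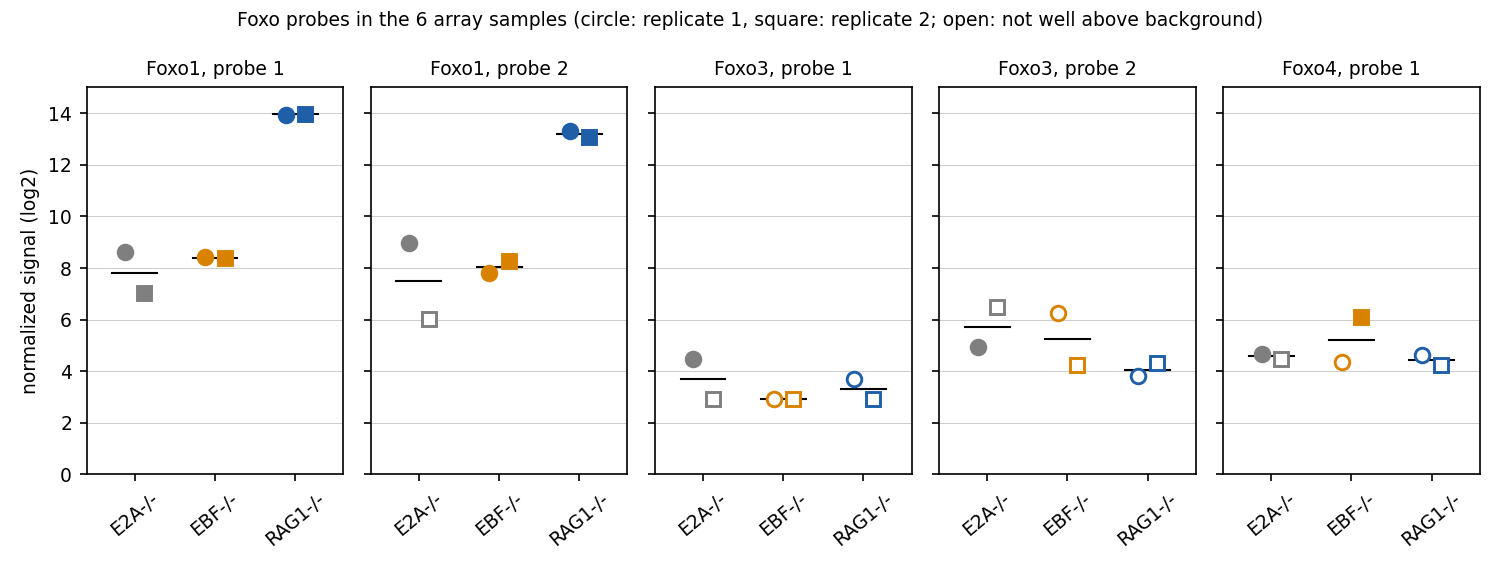
Normalized log2 signal of each Foxo probe in the 6 RNA samples, 1 panel per probe; circles are replicate 1, squares replicate 2, lines are group means, and open symbols were not well above background. Foxo1 rises from between 6.04 and 8.96 in the pre-pro-B samples to between 13.10 and 13.98 in RAG1-/- cells on both of its probes, while most Foxo3 and Foxo4 symbols are open.

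Foxo1 means ± SD over 2 samples were 7.81 ± 1.12 in E2A-/- cells, 8.40 ± 0.013 in EBF-/- cells and 13.96 ± 0.021 in RAG1-/- cells. Foxo1 RNA was 47.6-fold higher in RAG1-/- than in EBF-/- cells, a log2 difference of 5.57 (SE 0.44, 95% interval 4.40 to 6.74, limma adjusted p = 0.00174). In that comparison 21.2% of the 12837 genes tested were called higher, and 118 genes (0.919%) had a larger rise. The median difference of all genes was 0.04 on the log2 scale.

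Against E2A-/- cells, Foxo1 was 71.2-fold higher in RAG1-/- cells, a log2 difference of 6.15 (SE 0.44, 95% interval 4.98 to 7.33, limma adjusted p = 0.00119). Here 22.8% of genes were called higher, 99 genes (0.771%) rose more than Foxo1, and the median of all genes was 0.03. This comparison and the one with EBF-/- cells share the RAG1-/- samples. Each difference was larger than the spread between replicates in every group.

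The order of Foxo1 levels was E2A-/-, EBF-/-, RAG1-/-, and the first 2 did not differ beyond their spread. EBF-/- minus E2A-/- was 0.58 for Foxo1 (SE 0.44, 95% interval -0.60 to 1.76, limma adjusted p = 0.412), with 12.6% of all genes called higher, 11.6% called lower and a median of -0.01. The pair of E2A-/- samples decided that value. Without E2A-/- replicate 1 the Foxo1 difference was 1.37 (SE 0.195) with a limma adjusted p of 0.0264, and without replicate 2 it was -0.19 with an adjusted p of 0.561.

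Pro-B markers differed in the same way between the E2A-/- samples. All 12 markers were well above background in replicate 1 and 5 in replicate 2, beside 61.8% and 40.9% of all spots. Of the 12, 11 were brighter in replicate 1, against 52.4% of all genes. Igll1, a surrogate light chain, read 11.14 and 4.34, and Cd79a, a chain of the B cell receptor, read 5.61 and 3.15. The part of these markers in the spread of Foxo1 was not tested.

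The other Foxo1 probe, A_52_P453884 (mm8 chr3:52437296-52437355), gave the same picture with more spread. It read 8.96 and 6.04 in E2A-/- cells, 7.83 and 8.27 in EBF-/- cells, and 13.32 and 13.10 in RAG1-/- cells, and E2A-/- replicate 2 was not well above background. The RAG1-/- samples again lay above all others, and the pre-pro-B groups overlapped. In a limma fit over the 22133 probes kept, RAG1-/- was 36.5-fold above EBF-/- cells (log2 5.19, SE 0.90, adjusted p = 0.0135) and 52.7-fold above E2A-/- cells (log2 5.72, SE 0.90, adjusted p = 0.0102) on this Foxo1 probe. EBF-/- minus E2A-/- was 0.53 (SE 0.90, limma adjusted p = 0.742). Both differences from E2A-/- cells include the replicate 2 reading that was not well above background.

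Foxo3, named Foxo3a in the array's design, had no group in which both samples were well above background, so its probes give bounds and no fold. Probe A_51_P145507 (mm8 chr10:41874361-41874420, - strand) read 4.93 and 6.49 in E2A-/- cells, 6.26 and 4.25 in EBF-/- cells, and 3.82 and 4.30 in RAG1-/- cells. Probe A_52_P373852 (mm8 chr10:41869156-41869215) read 4.49 and 2.91, 2.91 and 2.93, and 3.70 and 2.92 in the same order. E2A-/- replicate 1 was the only sample above background on either Foxo3 probe, and it was also the array channel with the most spots above background, 61.8% against 40.9% to 54.8% in the other 5. Over all 41099 probes, limma called no Foxo3 difference. RAG1-/- minus EBF-/- was -1.22 on the first-named Foxo3 probe (SE 1.04, 95% interval -4.10 to 1.65, adjusted p = 0.605) and 0.40 on the other (SE 0.62, 95% interval -1.31 to 2.12, adjusted p = 0.741).

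Foxo4, named Mllt7 in the design, was measured by 1 probe, A_51_P200875 (mm8 chrX:97461596-97461655, + strand). It read 4.68 and 4.46 in E2A-/- cells, 4.36 and 6.09 in EBF-/- cells, and 4.65 and 4.24 in RAG1-/- cells. E2A-/- replicate 1 and EBF-/- replicate 2 were above background, the 3 groups overlapped, and no order can be read from them. RAG1-/- minus EBF-/- was -0.77 for Foxo4 (SE 0.69, 95% interval -2.68 to 1.14, limma adjusted p = 0.626), and RAG1-/- minus E2A-/- was -0.12 (95% interval -2.04 to 1.81, adjusted p = 0.958). The lowest signals among probes well above background lay between 3.92 and 6.86 in the 6 samples, so a Foxo3 or Foxo4 transcript at or under such a level was not detectable.

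Of 12836 other genes tested, those whose 6 values followed Foxo1 most closely after centring were Tgfb3, Casp1, Irf4 and Gm6212, with root mean square differences of 0.253, 0.299, 0.334 and 0.393 log2 units from Foxo1 over the 6 samples. Tgfb3 encodes a TGF-β ligand, Casp1 an inflammatory caspase, and Irf4 a transcription factor of B cell and plasma cell development. Arntl, a circadian clock gene, and Cd36, a lipid receptor, followed at 0.469 each, then Armcx2 at 0.488 and 2010007H06Rik at 0.494. Tgfb3, Gm6212 and Arntl were well above background in all 6 samples, Casp1 and Irf4 in 5, Armcx2 in 3, and Cd36 and 2010007H06Rik in 2; for the last 5 of these the values below background are bounds, and so is the likeness they give.

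The checks of the samples bear on the Foxo1 comparisons as follows. Tcf3, which encodes E2A, read 10.80 and 9.44 in E2A-/- cells, 13.41 and 13.39 in EBF-/- cells, and 14.99 and 14.70 in RAG1-/- cells. Ebf1 read 10.86 and 10.90 in EBF-/- cells, above 6.95 and 5.39 in E2A-/- cells and below 12.56 and 12.39 in RAG1-/- cells, and Rag1 read 10.54 and 11.12 in RAG1-/- cells. No source used here says whether these probes lie in the deleted parts, so they do not check the labels. Of 12 pro-B markers, 11 were called higher in RAG1-/- cells in both comparisons along with Foxo1, beside 21.2% and 22.8% of all genes. Their summed level, as log2, was 14.40 and 12.72 in E2A-/- cells, 14.38 and 14.32 in EBF-/- cells, and 19.91 and 19.80 in RAG1-/- cells. All 12 were well above background in both RAG1-/- samples, 8 in EBF-/- replicate 1 and 5 in E2A-/- replicate 2. Any pro-B marker that passed the filter through RAG1-/- cells alone had to differ and gives the count no support. In bulk RNA, fewer cells of a type and less RNA per cell cannot be told apart. Of 9 NK markers 6 were measured, and all 6 were called lower in RAG1-/- than in EBF-/- cells, beside 22.6% of all genes. Their summed levels were 9.37 and 10.58 against 14.35 and 14.48. All 6 were well above background in both EBF-/- samples and 4 in each RAG1-/- sample. Any NK marker that passed the filter through EBF-/- cells alone had to differ and gives the count no support. T cell markers, 7 measured of 10, had 3 called lower and none higher in RAG1-/- than in EBF-/- cells, beside 22.6% and 21.2% of all genes. Their summed levels were 12.85 and 12.81 against 14.38 and 14.33. Myeloid markers, 9 measured of 11, summed to 11.97 and 15.93 in the RAG1-/- samples and to between 15.23 and 16.51 in the others. The part of the marker differences in the Foxo1 change was not tested.

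Around Foxo1, the peak lists of RAG1-/- cells held 8 E2A peaks, 2 EBF1 peaks and 1 FOXO1 peak within 100 kb of the probes. No mm8 annotation was used here, so windows start from the probes, which lie near the 3′ end of Foxo1, and each position is the distance from them along the gene's strand. Each ChIP condition is 1 library, so no difference between lists has a test. The value of a peak is the authors' own number, which no source used here defines, and it serves only to rank peaks within a list. Shares of genes below are over the 21221 array genes with a probe position. At least 1 E2A peak in the same window was found for 63.6% of genes, at least 1 EBF1 peak for 18.7% and at least 1 FOXO1 peak for 21.5%. Foxo1 stood high in the number of E2A peaks, since 3.1% of genes had 8 or more, and 4.14% had 2 or more EBF1 peaks.

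The FOXO1, EBF1 and E2A peaks of RAG1-/- cells met at 1 place, downstream of the Foxo1 probes. The E2A peak (mm8 chr3:52531954-52532153) lay 94.6 kb away with a value of 102, rank 14 of 11846, and 0.135% of that list reached it. The EBF1 peak (chr3:52531796-52531995) had a value of 12, reached by 47.9% of 1402 peaks. The FOXO1 peak (chr3:52531894-52531969) also had a value of 12, reached by 18% of 1575 peaks. So the place was near the top of the E2A list and in the middle of the EBF1 list. FOXO1 peaks that share a base with both an E2A and an EBF1 peak numbered 62 (3.94% of the list), and 1.05% of genes had one within 100 kb. Of the 62, the one by Foxo1 had the highest E2A value, against a median of 39.0. Foxo3 and Foxo4 had none. A further FOXO1 peak, with a value of 9, lay 109.5 kb downstream of the Foxo1 probes, outside the window.

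**Figure D2:**
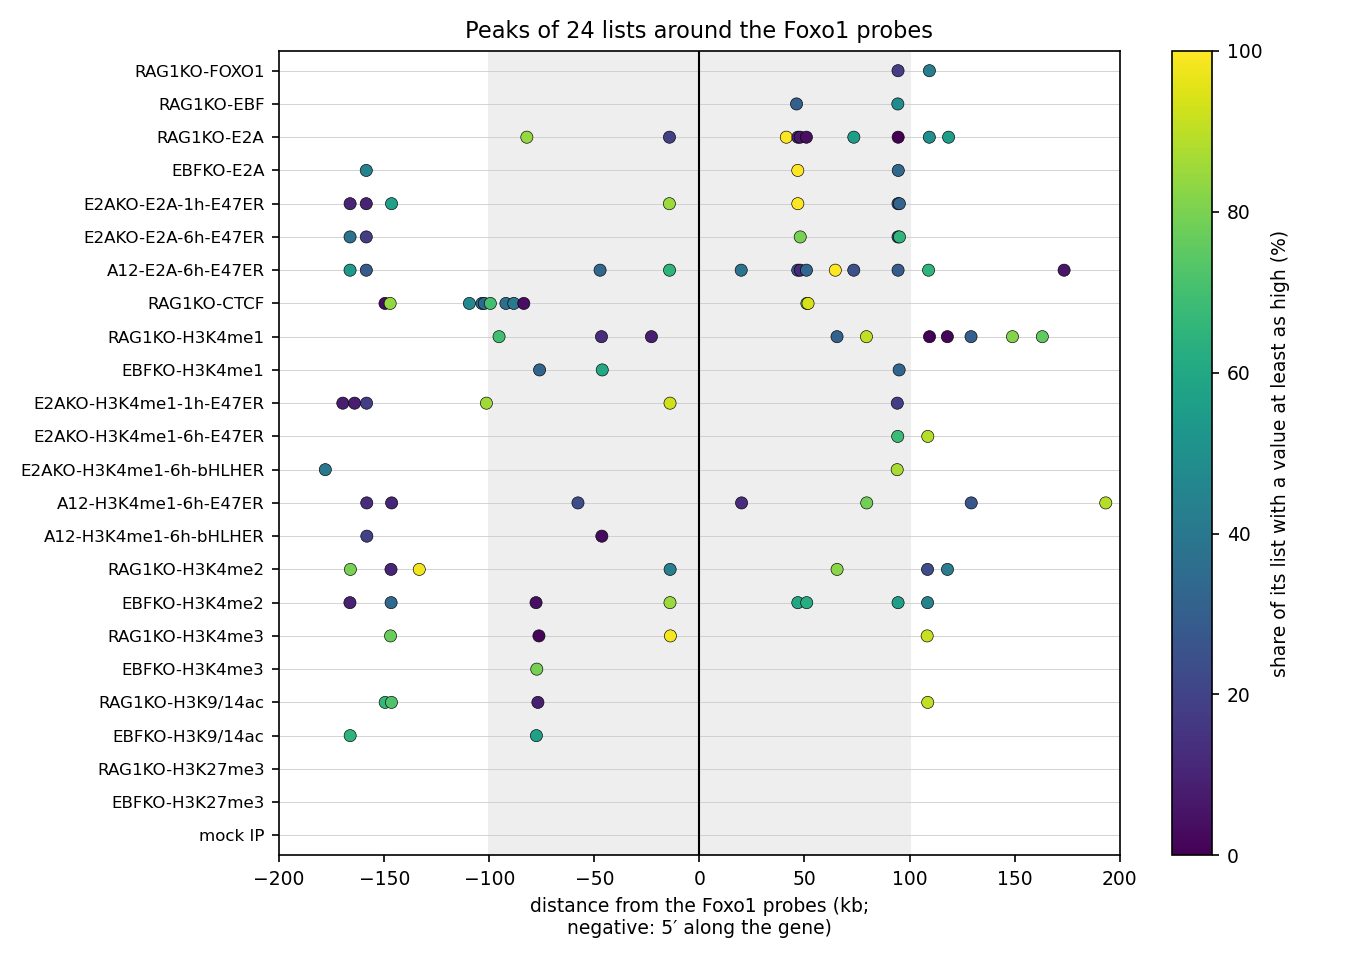
Peaks of the 24 lists (1 line each) by distance from the Foxo1 probes in kb, upstream to the left on the gene's strand; the grey band is the 100 kb window and colour gives the percent of a list with a value at least as high. E2A peaks cluster 46.9 to 50.9 kb and 94.6 kb downstream, and H3K4me3 peaks lie 76.4 (RAG1-/-) and 77.4 kb (EBF-/-) upstream. RAG1-/- cells have another H3K4me3 peak within 50 kb of the probes.

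E2A peaks of other cells lay at the same place. EBF-/- cells had one of value 17, reached by 33.3% of their list, which shared bases with the RAG1-/- E2A peak but not with the narrower FOXO1 peak, and 44.8% of genes had an E2A peak in the window in these cells. In E2A-/- cells given E47-ER, E2A peaks of value 17 and 15 were present after 1 and 6 h of tamoxifen (73.8% and 63.2% of genes with a peak), and A12 cells had one of value 13 (66.3%). In E2A-/- cells H3K4me1 peaks lay over it with bHLH-ER (value 15, reached by 87% of the list), and with E47-ER at 1 h (30, reached by 18%) and 6 h (15, reached by 68%). H3K4me1 peaks near a gene were common on these lists, at 75.9%, 77.2% and 68.5% of genes. EBF-/- cells had H3K4me2 (35) there. Their H3K4me1 peak (26) at 95.1 kb lay beside it and shared no base with the E2A peak of RAG1-/- cells. No histone list of RAG1-/- cells had a peak at this place, and peaks of RAG1-/- cells beside it were not compared. Of the 62 places of the same kind, 3 were on the RAG1-/- H3K4me1 list, 22 on H3K4me2, 9 on H3K4me3 and 10 on H3K9/14ac, so most of them lacked each of these marks.

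The other strong E2A peaks of RAG1-/- cells near Foxo1 lay downstream in a group. They were 46.9, 48.0 and 50.9 kb from the probes with values of 34, 43 and 52, reached by 10.5%, 6.02% and 3.55% of the list. An EBF1 peak of value 14 lay 46.2 kb away without sharing a base with them. The remaining E2A peaks had values of 25 (14.2 kb upstream), 10 (82.1 kb upstream), 9 (41.4 kb downstream) and 13 (73.5 kb downstream). In EBF-/- cells the E2A list near Foxo1 had 2 peaks, at 94.6 kb and at 46.8 kb, the latter with a value of 11, the lowest on that list. Of the 8 RAG1-/- peaks, 6 shared a base with A12 E2A peaks (25.1% of all 11846 did), 3 with the 1 h E47-ER list (37.2%), 2 with the 6 h list (26.3%) and 2 with the EBF-/- list (17.1%). The A12 list held 9 E2A peaks near Foxo1 in all, and 10% of genes had as many. No named array gene had a probe within 200 kb of those of Foxo1, and its protein-coding neighbours in RefSeq are Maml3 and Cog6.

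H3K4me3, a mark of active promoters, was present upstream of the Foxo1 probes in both cell types. These probes lie near the 3′ end, so upstream of them does not mean upstream of the gene. The RAG1-/- peak (mm8 chr3:52356829-52357828) lay 76.4 kb upstream with a value of 335, reached by 1.39% of 13205 peaks. The EBF-/- peak lay 77.4 kb upstream with a value of 21, reached by 79% of 9064 peaks. The Foxo1 peak thus ranked high among RAG1-/- peaks and low among EBF-/- peaks. At least 1 H3K4me3 peak was found for 79.7% of genes in RAG1-/- and 72.7% in EBF-/- cells. RAG1-/- cells had another H3K4me3 peak within 50 kb of the Foxo1 probes, which shared a base with an E2A peak of these cells. Its value was not above the list's median of 156. The EBF-/- H3K4me2 peak 77.7 kb upstream was strong within its list, with a value of 109 reached by 3.92%, and no RAG1-/- H3K4me2 peak was there. H3K9/14ac had values of 94 in RAG1-/- cells (reached by 8.95%) and 63 in EBF-/- cells (56.7%). These lists differ in length, so the ranks show no change of the mark.

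H3K27me3, a mark of Polycomb repression, had no peak within 100 kb of any of the 3 genes in RAG1-/- or EBF-/- cells, and 26.9% and 17% of genes had one. The mock immunoprecipitation had none either, against 2.35% of genes. Foxo1 had 5 H3K4me1, 2 H3K4me2, 2 H3K4me3 and 1 H3K9/14ac peaks in RAG1-/- cells, where 82.6% of genes had H3K4me1, 86.7% H3K4me2 and 78.9% H3K9/14ac. In EBF-/- cells it had 3 H3K4me1, 5 H3K4me2, 1 H3K4me3 and 1 H3K9/14ac peaks, with 60.9%, 85.6% and 78.5% of genes for the first, second and last of these. A12 cells had 1 H3K4me1 peak with bHLH-ER and 3 with E47-ER (64.8% and 61.5% of genes). CTCF, a factor of chromatin loops and boundaries, had 6 peaks near Foxo1 (91.4% of genes), the strongest 83.6 kb upstream with a value of 60, reached by 3.59% of the list.

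Foxo3 had 3 E2A peaks and 1 EBF1 peak in RAG1-/- cells and no FOXO1 peak, and 29.4% of genes had 3 or more E2A peaks. Its E2A and EBF1 peaks shared a place 34.5 kb upstream of the probes, with values of 12 and 15, reached by 62.6% and 24.5% of their lists. H3K4me1 (51) and H3K4me2 (95) of RAG1-/- cells lay over it. An H3K4me3 peak and an H3K9/14ac peak of RAG1-/- cells also shared a base with this E2A peak. EBF-/- cells had an E2A peak of value 13 at 34.3 kb and H3K4me2 of 53. The other E2A peaks had values of 19 and 12, at 83.4 and 84.8 kb upstream. Foxo3 thus had an E2A and EBF1 place of its own, ranked in the middle of the E2A list and without FOXO1. H3K4me3 lay 90.1 kb upstream of the Foxo3 probes in both cell types, with values of 260 in RAG1-/- (reached by 13.6%) and 43 in EBF-/- cells (23.3%).

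**Figure D3:**
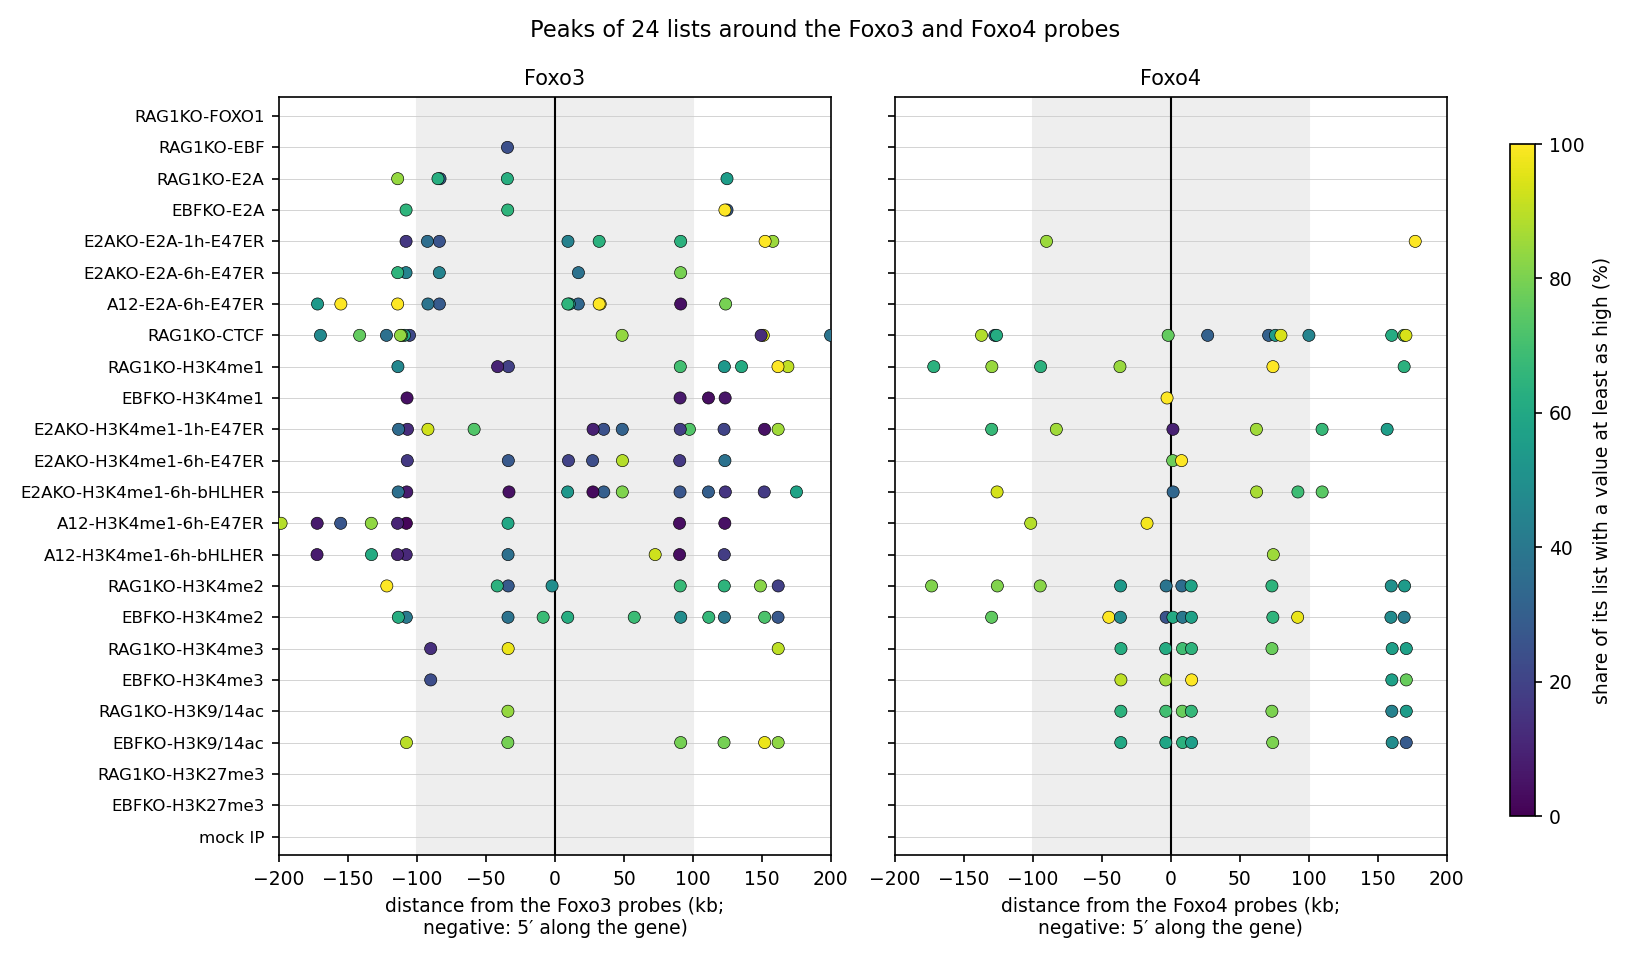
Peaks of the 24 lists by distance from the Foxo3 probes (left) and the Foxo4 probe (right) in kb, drawn as for Foxo1. Foxo3 has H3K4me3 90.1 kb upstream and a group of marks 90.3 to 91.1 kb downstream. Within 100 kb of the Foxo4 probe the RAG1-/- H3K4me3 list has 5 peaks and E2A has 1 peak, while peaks are drawn out to 200 kb.

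In E2A-/- cells carrying either fusion protein, more H3K4me1 peaks lay near Foxo3 than near Foxo1. These cells had 6 with bHLH-ER, 7 with E47-ER at 1 h and 5 at 6 h near Foxo3, against 1, 2 and 1 near Foxo1, and 15.6%, 9.68% and 10.7% of genes had as many as Foxo3. One of them, 27.5 kb downstream, had a value of 46 with bHLH-ER, reached by 3.04% of that list. The E2A peak near Foxo3 that ranked highest within its list was in A12 cells, 91.1 kb downstream, with a value of 29 reached by 3.98%. A12 H3K4me1 over it had values of 49 with bHLH-ER and 59 with E47-ER, reached by 3.53% and 3.78%. H3K4me1 of EBF-/- cells lay there too (36, reached by 6.79%). A12 had 8 E2A peaks near Foxo3, as many as 12.9% of genes. RefSeq's coding neighbours of Foxo3 are Armc2 and Afg1l, neither with an array probe within 100 kb.

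Foxo4 had no E2A, EBF1 or FOXO1 peak in RAG1-/- cells and no E2A peak in EBF-/- cells. The single E2A peak in its window, after 1 h of E47-ER, lay 90.2 kb upstream with a value of 8, reached by 84.8% of that list. H3K4me3 lay 3.7 kb upstream of the Foxo4 probe in RAG1-/- (113, reached by 61.1%) and EBF-/- cells (18, reached by 85.7%). The window is crowded, with array probes of D030036P13Rik, Snx12, Il2rg, Med12 and Nlgn3 within 100 kb, so its 5 RAG1-/- H3K4me3 peaks cannot be assigned to Foxo4. Il2rg, which encodes the chain shared by the IL-7 receptor and related receptors, lies 6.7 kb downstream.

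Genes that act on FOXO proteins were more often higher than lower in RAG1-/- cells. Of 44 upstream regulators, from PI3 kinase to 14-3-3 proteins, 17 were higher and 7 lower than in EBF-/- cells, against 21.2% and 22.6% of all genes, and the list's median was 0.26 beside 0.04 over all genes. Against E2A-/- cells 18 were higher and 9 lower (22.8% and 23% of all genes), with a median of 0.27 beside 0.03. Fewer were called in both comparisons when an E2A-/- or EBF-/- sample was left out, on this list and over all genes. Against EBF-/- cells the list's median was 0.298 (all genes 0.011) without EBF-/- replicate 1 and 0.225 (0.045) without EBF-/- replicate 2. Without RAG1-/- replicate 1 it was 0.174 (0.030), and more regulators were called lower. Against E2A-/- cells it was 0.209 (-0.010) without E2A-/- replicate 2 and 0.123 (0.025) without RAG1-/- replicate 1. No set test was run.

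Sgk1, a kinase that phosphorylates FOXO proteins as AKT does, had the largest rise among the regulators. It read 6.98 and 6.97 in E2A-/- cells, 7.70 and 7.87 in EBF-/- cells, and 11.97 in both RAG1-/- samples. The 3 groups did not overlap. Sgk1 was 18.2-fold higher in RAG1-/- than in EBF-/- cells (log2 4.18, SE 0.14, limma adjusted p = 0.000439). Inppl1, a lipid phosphatase, rose by 3.85 (SE 0.52) and Mtor, the kinase of both TOR complexes, by 2.59 (SE 0.50) on the log2 scale. Lower in RAG1-/- cells were Pik3ip1, an inhibitor of PI3 kinase (-1.93, SE 0.086), and the regulatory subunits Pik3r2 (-1.32) and Pik3r1 (-1.11). Pik3cb, a catalytic subunit, was at least 6.17-fold lower, since it was not well above background in RAG1-/- cells. Such a bound compares the mean of the brighter group with the background of the dimmer one.

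Between the pre-pro-B groups 7 regulators were higher and 7 lower in EBF-/- cells, beside 12.6% and 11.6% of all genes, with a median of 0.06 beside -0.01 over all genes. Sgk1 (0.81, SE 0.14) and Pik3r1 (0.77, SE 0.097) were higher there, and Pik3cb (-1.75, SE 0.27) and Pik3r3 (-1.63, SE 0.28) were lower. Sgk1 was well above background in 1 of the 2 E2A-/- samples. Fewer were called when an E2A-/- or EBF-/- sample was left out and more without a RAG1-/- sample, on this list and over all genes. The list's median ran from -0.065 (all genes -0.030) without E2A-/- replicate 2 to 0.109 (0.034) without E2A-/- replicate 1.

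**Figure D4:**
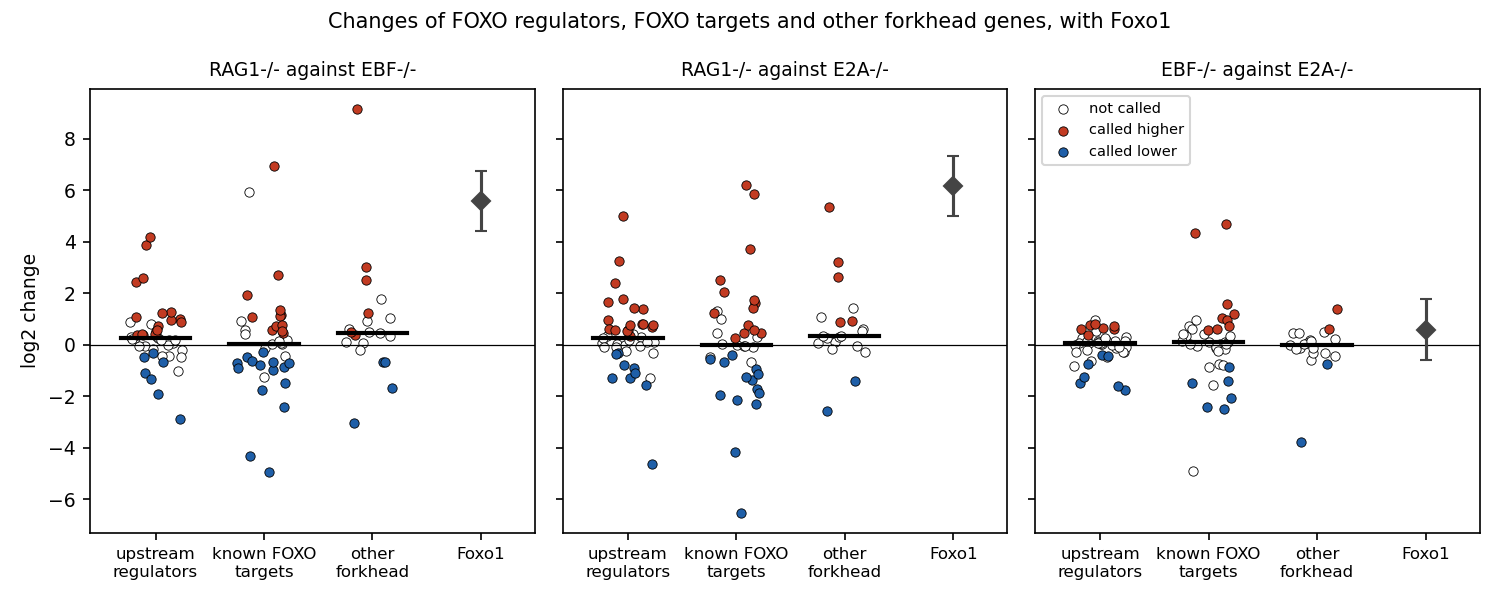
Log2 difference of each measured gene of the 3 lists in the 3 comparisons; red and blue points were called higher and lower by limma, bars are list medians, and the diamond is Foxo1 with its 95% interval. Foxo1, at 5.57 and 6.15 in the RAG1-/- comparisons, lies above every upstream regulator, and of the genes called higher against EBF-/- cells Blnk and Foxc1 lie above it.

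Known FOXO targets moved in both directions, and the part of Foxo1 in their changes was not tested. Of 39 measured, 12 were higher and 15 lower in RAG1-/- than in EBF-/- cells, beside 21.2% and 22.6% of all genes (median 0.03 beside 0.04). Against E2A-/- cells 14 were higher and 14 lower, beside 22.8% and 23% (median 0.00 beside 0.03). In EBF-/- against E2A-/- cells 9 were higher and 6 lower, beside 12.6% and 11.6% (median 0.10 beside -0.01). Fewer were called in both RAG1-/- comparisons when an E2A-/- or EBF-/- sample was left out, on this list and over all genes. Against EBF-/- cells the list's median was -0.237 (all genes 0.011) without EBF-/- replicate 1 and 0.077 (0.045) without replicate 2. It was -0.139 (0.030) without RAG1-/- replicate 1 and -0.242 (0.049) without RAG1-/- replicate 2. Against E2A-/- cells the list's median was -0.150 (0.043) without E2A-/- replicate 1 and 0.238 (-0.010) without E2A-/- replicate 2. Between the pre-pro-B groups fewer were called higher without one of their samples, as over all genes. The median there ran from 0.095 (all genes 0.015) without EBF-/- replicate 1 to 0.129 (-0.030) without E2A-/- replicate 2. Blnk, an adaptor of the pre-B cell receptor, rose 122.5-fold over EBF-/- cells (log2 6.94, SE 0.37, limma adjusted p = 0.000795). It read 12.29 and 11.07 in E2A-/- cells, 10.92 and 10.98 in EBF-/- cells, and 17.93 and 17.82 in RAG1-/- cells. Blnk, Rag1 and Il7r are also pro-B markers. S1pr1, which lymphocytes use to leave tissues, was higher by 2.70 (SE 0.23), and the cell cycle inhibitors Cdkn2d and Cdkn1b rose by 1.92 (SE 0.16) and 1.34 (SE 0.17).

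Of the targets that act in cell death, Bcl2l11, Bbc3 and Pmaip1 were lower in RAG1-/- than in EBF-/- cells, and Tnfsf10, which encodes the death ligand TRAIL, was higher. Bcl2l11, which encodes BIM, read 13.99 and 13.79 in E2A-/- cells, 14.11 and 13.91 in EBF-/- cells, and 11.58 and 11.59 in RAG1-/- cells. It was 5.36-fold lower in RAG1-/- than in EBF-/- cells (log2 -2.42, SE 0.087, limma adjusted p = 0.00045). Pmaip1, which encodes NOXA, fell 3.37-fold (log2 -1.75, SE 0.099), and the coactivator Cited4 fell 20.1-fold (log2 -4.33, SE 0.55). Trim63, a ubiquitin ligase of muscle wasting, was at least 18.4-fold lower.

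Il7r, a FOXO1 target in lymphocytes, had no called difference between RAG1-/- and EBF-/- cells. It differed by 0.02 between RAG1-/- and EBF-/- cells (SE 0.16, limma adjusted p = 0.937) and was 1.61 higher in RAG1-/- and 1.59 higher in EBF-/- than in E2A-/- cells. Rag1 rose by 4.69 (SE 0.27) and Cited4 by 4.35 (SE 0.55) from E2A-/- to EBF-/- cells. Bcl6, a repressor, and Pmaip1 were lower in EBF-/- than in E2A-/- cells, by -2.50 (SE 0.13) and -2.42 (SE 0.099). Rag1 and Cited4 were well above background in 1 of the 2 E2A-/- samples. Rag1 is the gene deleted in RAG1-/- cells.

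Among 38 other forkhead genes on the array, 20 were measured. Of these 6 were higher and 4 lower in RAG1-/- than in EBF-/- cells, beside 21.2% and 22.6% of all genes (median 0.46 beside 0.04). Against E2A-/- cells 5 were higher and 2 lower, beside 22.8% and 23% (median 0.34 beside 0.03). In EBF-/- against E2A-/- cells 2 were higher and 2 lower, beside 12.6% and 11.6% (median 0.00 beside -0.01). Against EBF-/- cells fewer were called without an EBF-/- sample, on this list and over all genes. The list's median was then 0.361 (all genes 0.011) without replicate 1 and 0.556 (0.045) without replicate 2. Without RAG1-/- replicate 1 fewer forkhead genes were called higher, while the counts over all genes stayed similar. The medians were then 0.389 (0.030) against EBF-/- and 0.529 (0.025) against E2A-/- cells. Between the pre-pro-B groups fewer were called without one of their samples, as over all genes. The median there ran from -0.124 (all genes -0.020) without EBF-/- replicate 2 to 0.087 (0.015) without EBF-/- replicate 1. Foxc1, a regulator of mesenchymal development, read 8.44 and 8.48 in E2A-/- cells, 5.15 and 4.21 in EBF-/- cells, and 14.10 and 13.54 in RAG1-/- cells. It was at least 273-fold higher in RAG1-/- than in EBF-/- cells and at least 6.63-fold lower in EBF-/- than in E2A-/- cells. Of the 6 called higher against EBF-/- cells, Foxf2 and Foxo6 passed the filter on dim probes through RAG1-/- cells alone. They had to differ and give the count no support, and both are also among the 5 called higher against E2A-/- cells. Foxf1, among the 4 called lower against EBF-/- cells, passed through EBF-/- cells alone and gives that count no support. Its E2A-/- replicate 2 value of 6.29 lay under 6.86, that sample's lowest signal well above background. Foxf2 was at least 2.92-fold higher and Foxf1 at least 4.26-fold lower in RAG1-/- than in EBF-/- cells. Foxm1, a cell cycle factor, rose by 1.22 (SE 0.098). Foxs1 (-1.68), Foxj2 (-0.68) and Foxp1 (-0.67), a B cell regulator, were lower. From E2A-/- to EBF-/- cells Foxs1 rose by 1.38 and Foxp1 by 0.62, and Foxj2 changed by -0.74; Foxs1 was well above background in 1 of the 2 E2A-/- samples.

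Foxo6, the remaining FOXO gene, was above background in both RAG1-/- samples and in no other. It read 3.49 and 4.34, 3.91 and 4.14, and 6.26 and 6.83 in E2A-/-, EBF-/- and RAG1-/- cells, at least 1.76-fold higher in RAG1-/- than in EBF-/- cells. It passed the filter through RAG1-/- cells alone, and its limma adjusted p was 0.0261 over the genes kept but 0.0755 over all 41099 probes, the set in which Foxo3 and Foxo4 were tested, so its call depends on the filter.

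FOXO1 peaks near genes of the FOXO pathway were also counted. Of 43 known targets with a probe position, 12 (27.9%) had a FOXO1 peak within 100 kb, as had 18 of 43 upstream regulators (41.9%) and 11 of 38 other forkhead genes (28.9%), beside 21.5% of all genes. That last share covers all genes with a probe position, measured or not, whereas most targets and regulators were measured. Among genes tested, 3431 had a FOXO1 peak and 9338 had none, which is a larger share than 21.5%. The targets with a peak included Il7r, S1pr1, Ccr7, Cdkn1b and Bcl2l11, and the regulators Sgk1, Akt1, Mtor, Pik3ip1 and Pik3r1. Of the 12 targets, Cdkn1b and S1pr1 were higher in RAG1-/- than in EBF-/- cells and Bbc3, Bcl2l11, Cited2, Map1lc3b and Pink1 were lower. Against E2A-/- cells 6 of the 12 were higher (Ccng2, Cdkn1b, Il7r, Map1lc3b, Pink1 and S1pr1) and 4 were lower, so Map1lc3b and Pink1 were called in opposite directions in the 2 comparisons. Over all genes tested, 23.5% of 3431 with a FOXO1 peak were higher and 23.6% lower than in EBF-/- cells, against 20.3% and 22.2% of 9338 without one. Against E2A-/- cells the shares were 25.1% and 22.9% with a peak and 22% and 23% without. Foxo1, with its own FOXO1 peak 94.5 kb downstream of its probes, is 1 of the 807 that had a peak and were higher than in EBF-/- cells.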

How the data were processed

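Array intensity values were deposited by the authors as output of Agilent Feature Extraction 9.5.3.1, background-subtracted and dye-normalized within each array, per the file headers. Of each array, only channels whose RNA the labels name were used, 6 in all. These were log2-transformed, quantile normalized and averaged over spots, leaving out control and outlier spots. Probes were kept where both samples of any group were well above background (22133 of 41099), and a gene was represented by its brightest kept probe. A single limma 3.58.1 model (R 4.3.3) was fitted to all 6 with terms for group and dye, a random block for array (correlation -0.026) and a trended prior (2 residual and 2.50 prior degrees of freedom). Benjamini-Hochberg adjustment ran over 12837 genes, with a threshold of 0.05. Only 2 samples per group limit the precision, and no label states that replicates were separate animals or cultures, so p-values measure the spread between samples that may be technical.

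Peaks carry a deposited score per peak, made by the authors with HOMER on mm8, per the submitters' processing notes; no source used here says whether a control was used or samples were pooled. Overlap means at least 1 shared base. Gene names came from RefSeq (GRCm38.p6): of the 41174 probes 23477 matched by accession, 6680 by symbol and 2879 by a unique synonym, and 1838 kept the file's name and 6300 had none. RefSeq promoters matched Foxo1 and Foxo3. Members and gene lists were chosen with earlier results of these data known. Named were all member probes, the 4 called genes of each list with the largest change in each direction between RAG1-/- and EBF-/- cells and the 2 between EBF-/- and E2A-/- cells, and the 8 genes most like Foxo1. Il7r, Foxo6 outside its rank, marker genes and the genes listed by FOXO1 peaks were named for context; a gene that the rule also gives is not reported here. Alternatives varied normalization, background, filter, prior, probe rule, windows and samples; those for the lists were added after seeing the data.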

Additional observations from a re-analysis of the deposited data

How the results depend on the processing

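The Foxo1 rise in RAG1-/- cells kept its direction and its call under all 15 alternatives in both comparisons, with ranges of 5.17 to 5.97 against EBF-/- and 5.37 to 6.93 against E2A-/- cells. EBF-/- minus E2A-/- ran from -0.19 to 1.37 for Foxo1 as single samples were left out, with the one call given in the report.

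Replicate numbers did not pair the samples (correlations of deviations -0.403, 0.166 and 0.016). With the replicate block the Foxo1 differences were 5.57, 6.16 and 0.59, and the block moved the counts called between EBF-/- and E2A-/- cells to 2691 higher and 2512 lower from 1620 and 1487. Those counts were 1061 and 907 with no filter and 1058 and 959 with no trend in the prior. Leaving out 1 sample gave 232 to 2774 higher and 237 to 2602 lower there, 1074 to 2840 and 1253 to 3237 for RAG1-/- against EBF-/-, and 1681 to 3117 and 1672 to 3396 for RAG1-/- against E2A-/- cells. A group left with 1 sample was assumed to vary like the others; for the other shifts the cause was not tested. Of 162 list counts recomputed, 116 stayed within 1.5 times.

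Peak counts follow the window by construction. At 50 kb Foxo1 had 4 E2A, 1 EBF1 and 0 FOXO1 peaks in RAG1-/- cells, 1 E2A peak in EBF-/- cells and 0 shared places, and Foxo3 had 1 E2A peak in RAG1-/- cells. At 200 kb Foxo1 had 2 FOXO1 peaks, and Foxo3 had 5 E2A peaks in RAG1-/- and 4 in EBF-/- cells. With only the upper part of each list by value, Foxo1 had 5 and 1 E2A peaks in RAG1-/- and EBF-/- cells, and Foxo3 had 1 and 0. Background limits Foxo3 and Foxo4: their levels are bounds in most samples.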
